A study of Mus musculus with 8 samples.

Results

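Short introns that carried many reads were examined in polyA RNA of the mouse suprachiasmatic nucleus (SCN), the hypothalamic nucleus that holds the master circadian clock. They were chosen from the deposited table of reads on the sense strand of introns: rows with 1 gene symbol, a length of at most 2000 bp and a mean of at least 100 reads over the 8 libraries. The rule kept 1883 introns of 1151 gene symbols, out of 176269 introns in the table and 91327 rows with 1 symbol and at most 2000 bp. The read counts themselves chose these introns, so their high level is not a finding.

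C57/BL6 mice had been kept in a 12 h light and 12 h dark cycle for 3 weeks and were then moved to constant darkness, where SCN tissue was taken every 6 h for 2 days. The groups were circadian time (CT) 4 and CT10, in the subjective day, and CT16 and CT22, in the subjective night, with 2 libraries each, 1 from each cycle. The labels name no treatment or mutation and set the groups apart only by the time of collection. The libraries also differed in the amount of myelin gene RNA, as given below. Each library was a pool of equal amounts of RNA from 3 mice, and the submitters describe the series as having no replicates. The p-values below therefore rest on the spread of pooled libraries around a fitted 24-h pattern, estimated with help from the other introns or genes tested. They do not measure the spread between mice. Sampling started at CT18 according to the labels, yet the earliest library is titled CT22.

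Most introns are removed while the RNA is still being made, and the excised intron is degraded. Some stay in RNA that is already polyadenylated: retained introns can be exported or held in the nucleus, where they are called detained introns, and genes for SR proteins, hnRNP proteins and the kinases that act on them are well-known carriers. These splicing regulators limit their own output in this way or through poison exons, short exons with a stop codon that lie inside such introns. An intron row of a read table can also fill up because another isoform of the gene has an exon there.

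Most of these introns overlapped an exon row. Exons in the deposited sense exon table overlapped 1033 of the 1883 introns without any annotated exon covering the whole intron (54.9%, in 723 genes). This class is called exons inside or across an end. It also takes introns that only an exon without annotation covers whole. Overlap was judged by position, whatever the gene symbol or strand of the exon. Another 402 introns (21.3%) held shorter exons and were also covered whole by a longer one, and 209 (11.1%) were only covered whole, as an annotated retained intron or a long terminal exon would be. No exon of the table touched the remaining 239 introns (12.7%, in 208 genes). Among the 89444 short introns under the read limit, 68.3% were free of any exon. How the authors' counting treated reads in such exons is not given in the sources used here, so a count on an intron with an exon inside it is not by itself a count of intron retention. The introns also overlap each other: they merge into 1482 separate stretches of the genome, and 1215 of them overlap no other member.

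Sequences are shown for introns that lie between coding exons and that, in the GENCODE M21 annotation, only transcripts of the retained-intron type contain whole. The deposited coordinates are on mm9 and the sequences come from GENCODE transcripts on GRCm38; 1666 of the 1883 introns (88.5%) were matched by gene, chromosome and exact length. Capitals mark the first 6 bases, the 5′ splice site, and the last 3 bases, the 3′ splice site. These introns are set side by side because the balance of intron reads and junction reads differs widely between them. Intron reads were not scaled by length here, and the lengths differ as well. Clk1, a kinase that phosphorylates SR proteins, carried 299 reads on its 387 bp intron (chr1:58419734-58420120, minus strand, GRCm38) and only 20.8 reads across the junction that joins its flanking exons. Hnrnpa2b1, an hnRNP protein, carried 176 reads on an intron of 80 bp (chr6:51466223-51466302, minus strand) against 1310 junction reads. Eef1a1, the translation elongation factor, carried 246 reads on an intron of 92 bp (chr9:78480149-78480240, minus strand) against 2910 junction reads. Hnrpdl, another hnRNP gene, had 172 intron reads and 124 junction reads (chr5:100036196-100036480, minus strand). Of the Clk1 intron the first 20 and the last 30 bases are given, and the others are whole.
Clk1 387 bp, 5′ end: GTATAGaatatttttcaaca
Clk1 387 bp, 3′ end: ttatgaataataattattcctctttttTAG
Hnrnpa2b1 80 bp: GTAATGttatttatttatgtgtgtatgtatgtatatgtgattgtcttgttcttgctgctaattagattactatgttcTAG
Eef1a1 92 bp: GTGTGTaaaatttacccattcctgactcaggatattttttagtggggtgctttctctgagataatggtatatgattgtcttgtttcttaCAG
Hnrpdl 285 bp: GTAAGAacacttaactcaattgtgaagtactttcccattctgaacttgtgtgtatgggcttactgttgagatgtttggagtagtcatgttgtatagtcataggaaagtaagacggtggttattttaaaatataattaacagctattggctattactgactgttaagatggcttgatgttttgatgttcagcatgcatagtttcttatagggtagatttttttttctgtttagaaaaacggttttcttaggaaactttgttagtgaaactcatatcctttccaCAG

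The same ends are shown for introns of greater length. D4Wsu53e, the older symbol of Rsrp1, an arginine- and serine-rich protein, is included because its intron passed the 24-h test described below (chr4:134925433-134926734, plus strand, GRCm38). The Srsf6 intron (chr2:162932143-162932814, plus strand) belongs to an SR protein, a regulator of splicing. The Arglu1 intron (chr8:8681949-8683747, minus strand), whose mm9 and GRCm38 coordinates are the same, and that of Ntsr2, a neurotensin receptor (chr12:16656871-16658364, plus strand), are among the read-richest with no exon in the deposited table.
D4Wsu53e 1302 bp, 5′ end: GTAAGTgccttcaggaagct
D4Wsu53e 1302 bp, 3′ end: ggctatgtttaaaattctcttcctcttTAG
Srsf6 672 bp, 5′ end: GTGAGTccttacccccgcgc
Srsf6 672 bp, 3′ end: taacaagtccttgatgtttcaatttgaAAG
Arglu1 1799 bp, 5′ end: GTAACGctcggtcgtttgga
Arglu1 1799 bp, 3′ end: gccaagctaacagtacaaatcattttaAAG
Ntsr2 1494 bp, 5′ end: GTTAAGtcctctaccacaat
Ntsr2 1494 bp, 3′ end: cctctctctctctctcccactctccttCAG

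The splice sites of these introns were mostly of the common kind. Of 557 members of at least 70 bp for which a whole sequence was found, 97.8% began with GT and 98.7% ended with AG, against 98.2% and 99.7% of 8845 other short introns. The donor GTAAGT, read on the strand of the gene, stood at 9.69% of the members and 8.4% of the others; D4Wsu53e has it, and the 387 bp Clk1 intron matches it at 3 of 6 bases. Median GC content was 48.0% in the members and 52% in the others, but the members were longer, at a median of 796 bp against 261 bp. Among introns over 500 bp the GC medians were 47.1% (375 members) and 46.9% (2557 others). These shares describe introns that some GENCODE transcript holds whole, not all introns.

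The members ranged from 100 to 8279 mean reads, with a median of 162, and from 2 to 2000 bp, with a median of 1052 bp; 4 were shorter than 50 bp. They make up 2.06% of the short introns and took 13.1% of all reads in the intron table. Short introns below the limit had a median of 2.25 reads. Just inside the limits lay introns of Phf10 and Urod, each at 100 reads, and Kcnt1 at 2000 bp, and just outside lay Cst3 and Sidt2, each at 99.9 reads, and Usp45 at 2002 bp.

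Density was the reads per kb of the intron as a percentage of reads per kb over exons of the same gene. The exons used were annotated ones of 1 symbol that hold no whole intron row, without overlap, the most read first. An exon that covers an intron is therefore not among them. The median over the members was 40.7%: 26.1% for introns with no exon, 95.0% for those only covered whole, 66.3% where a covering exon and shorter exons both lay, and 33.5% with exons inside or across an end. With gene row reads over the length of the same exons as denominator, the median was 51.9%. The classes then had 34.6%, 73.2%, 71.4% and 44% in the same order, so the covered classes lay close together. In the plot of density by class, 358 introns lie above 100%, of which 24 have no exon in the table. The highest densities, among genes with at least 200 gene reads, came from very short rows or from introns that an exon covers or enters. Epb4.9, a cytoskeletal protein of the red cell membrane, had 131 reads on a row of 2 bp, and Peg10, an imprinted gene derived from a retrotransposon, 269 reads on 28 bp, both covered by an exon. Ankrd12, a nuclear ankyrin-repeat protein, stood at 1111% on 1975 bp. Between 437% and 615% lay Zfp715, Nkiras1, Ykt6, Prrc2c and Dbndd2.

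**Figure D1:**
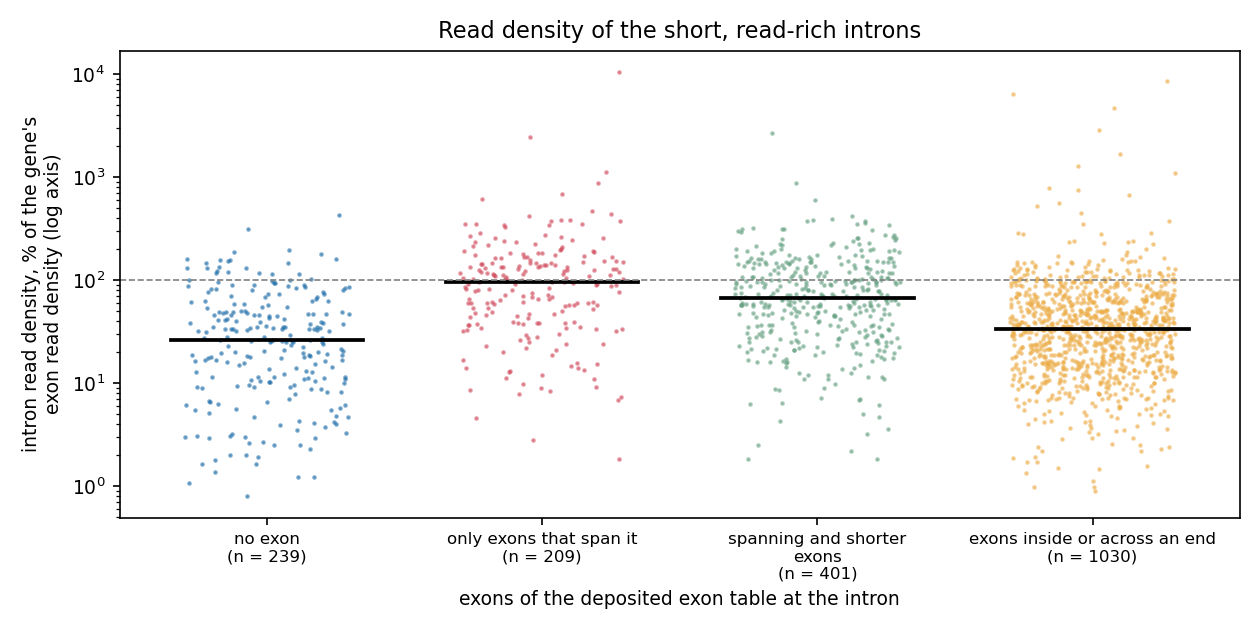
Read density of each member intron as a percentage of the exon read density of its gene (log axis), by the exons of the deposited exon table found there; each point is 1 intron (mean of 8 libraries) and the black line is the median. Medians are 26.1%, 95.0%, 66.3% and 33.5% from left to right, and the dashed line marks 100%.

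The 10 introns with the most reads were mostly of the kind that holds exons. Hspa8, the constitutive heat shock protein of the Hsp70 family, led with 8279 reads on 1900 bp (chr9:40609397-40611296, mm9, as all coordinates that follow), and 2 overlapping introns of Meg3, an imprinted long noncoding RNA, followed with 7436 and 5979. Hnrnpa2b1 had 2 overlapping introns near the 3′ end of the gene at 6325 and 5474 reads. Zwint, a kinetochore protein gene that neurons express strongly, had 4594, D4Wsu53e 3275 and Araf, a Raf kinase, 3026. AK195683, a symbol that the gene table does not hold, had 4456 reads and lies inside the gene row of Mbp, myelin basic protein. Of the 95 members whose symbol the gene table lacks or holds more than once, 88 lie inside another row of that table, some of them under another spelling of their own symbol (such as GPx4 in Gpx4). Where the row is of a different gene, the reads of the intron and of that gene cannot be told apart.

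Introns with no exon in the table are those in which no annotated exon of the table can add reads, and several RNA-processing genes were among the read-richest. Rian, an imprinted noncoding RNA that hosts small RNAs, had 2978 reads on 855 bp (57.4% of its exon density) and GENCODE has an exon inside that intron. Arglu1, a coactivator and splicing regulator, had 1405 reads on 1799 bp at 79.8% of the exon density, and 1.38 reads across its junction. Its reads in order of collection (CT22, CT4, CT10, CT16, then the same in the second cycle) were 1208, 1500, 1271, 1353, 1373, 1653, 1534 and 1349, with 1039 to 1409 reads on the gene row. This is 977 to 1476 intron reads per 1000 gene reads, with no order by time. GENCODE, unlike the deposited exon table, holds a shorter exon inside this intron and a transcript that retains it. Snrnp70, the U1 snRNP protein that binds 5′ splice sites, had 1144 reads on 1006 bp (59.1%, 1.50 junction reads), also with a GENCODE exon inside.

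Further introns of that class belonged to genes with other roles. A230050P20Rik, a gene of unknown function, had 757 reads at 89.0% of the exon density, Nxf1, the mRNA export receptor, 692 at 33.6%, Ntsr2 675 at 72.3% and Prpf4b, a splicing kinase, 652 at 76.8%. Nxf1 is the textbook case of a retained intron that carries its own export signal. Ankrd11, a chromatin regulator, had 461 reads at 154%, Spnb4, a spectrin of the axon initial segment, 435 at 311%, and Kcnc1, a potassium channel, 354 at 85.9%. A density above 100% means that the intron was read more, per kb, than the exons of its gene used for the density.

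Reads across the splice junction mark introns that were also removed in part of the RNA. Of the 239 introns with no exon, 162 had at least 10 junction reads on average, and their median density was 18.5%. Hnrnpa2b1's 156 bp intron had 515 reads and 927 junction reads, and Sparc, a secreted matrix protein, 207 and 1596 on a 622 bp intron at 2.66% of the exon density. Aifm3 (314 reads, 15.3 junction reads), Izumo4 (278 and 22.5) and Kcnc1 (354 and 16.3) show the opposite balance, though they too had at least 10 junction reads. Intron reads are totals not scaled by length, so this balance also depends on the length of the intron. Removing also the introns with an exon of the same gene in GENCODE left 172 introns of 149 genes, with a median density of 24.9% and a median of 30.4 junction reads.

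GENCODE, which was not used to choose the introns, lists retained-intron transcripts over many of them. Such a transcript covered 14.7% of the 231 matched introns with no exon, against 3.17% of 57826 other short introns of that class, and 12.2% of the 172 against 2.89% of 53383. In the class with exons inside or across an end the shares were 4.61% and 2.9%. The order was the other way in the class only covered whole, 40.8% against 58.8%, and in the class with spanning and shorter exons, 47.3% against 55.6%. Members were more often the last intron of the transcript they matched, 30.4% against 13.2%, and less often within the coding sequence, 66.4% against 86.8%. These are shares over introns that overlap and share genes, given without a test. The other short introns all lay under the read limit, where the median was 2.25 reads. Shares among introns of similar read depth or gene expression were not computed.

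Several genes held many members. Gas5, a noncoding RNA whose introns encode snoRNAs, had 9, Nelf (now Nsmf), a synapse-to-nucleus messenger, 9, and Hnrnpa2b1 8, and 9 genes had 7 each, among them Gprasp2, D4Wsu53e and Tardbp. The 9 Nelf introns all hold exons and lay between 11.3% and 90.9% of the exon density, and the 7 of Gprasp2 between 25.1% and 69.5%. All 9 Gas5 introns lay between 23.5% and 32.2% of its exon density, and snoRNA genes of GENCODE lay inside 7 of them, such as Snord78. In all, snoRNA genes lay in 23 matched members (1.38%, against 0.255% of other short introns), including Rps3 (Snord15b), Rpl10 (Snora70) and Eif4a2 (Snord2), whose small RNAs are released from spliced introns. Counts cannot separate a retained host intron from such RNAs. The other short introns were not matched to the members for read depth here either.

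The 24-h test asked whether reads on an intron followed the time of day. It contrasts day with night and, as a second axis, dusk (CT10, CT16) with dawn (CT22, CT4), using edgeR's quasi-likelihood test, and gives a peak time and a peak-to-trough difference. Except for the authors' own, adjusted p-values given below for single introns, genes and intron-to-gene ratios are of a test over both axes. This holds also where a fold between day and night, or dusk and dawn, stands beside them. All 1883 members entered the 24-h test on intron reads among 62118 introns. Of these, 10 members were called at a Benjamini-Hochberg adjusted p under 0.05, against 58 of all introns tested (0.0934%). The members have high counts, and of other introns with a mean of at least 100 reads 0.564% were called (27 of 4783), while 10 of 1883 lies near that share. At an unadjusted p under 0.05 stood 318 members, 16.9%, against 7.85% of all introns and 16.3% of the others at 100 reads or more, so the members did not stand apart from introns of similar depth. The 10 came from 5 stretches in 5 genes, 8 of them with a peak between CT6.4 and CT8.2. On the day-night term alone 8 members were higher and 1 lower in the day, where 0.0177% of all introns were called in each direction.

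The D4Wsu53e introns called were 5 alternative introns within chr4:134481348-134482649. Reads on the longest were 1935, 3850, 4046 and 2411 at CT22, CT4, CT10 and CT16 of the first cycle and 2590, 4137, 4072 and 3162 of the second. All day libraries were above all night libraries: 1.59-fold on average (log2 0.67 ± 0.10 SE, n = 4 and 4), with a peak at CT7.9 and an adjusted p of 0.00409 by edgeR. The gene row, counted over the exons, gave 5111, 6531, 6920 and 4571, then 5157, 8035, 6866 and 6058 reads, with a day-night fold of 1.35 and an adjusted p of 0.268. Intron reads per 1000 gene reads were 379 and 502 at CT22 and 515 to 593 at the other times, and the intron-to-gene difference did not pass (log2 day-night 0.26 ± 0.08 SE, adjusted p 0.385 by edgeR). Leaving out 1 library at a time, the longest intron stayed called in 8 of 8 fits, while the 204 bp intron inside it stayed in 2.

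Dbp, a transcription factor driven directly by the clock, rose in the day in both intron and gene. Its 1243 bp intron (chr7:52962387-52963629) had 71, 207, 173 and 68 reads, then 74, 185, 185 and 99, so day and night libraries did not overlap. Day was 2.39-fold above night (log2 1.26 ± 0.18 SE) with a peak at CT7.1 and an adjusted p of 0.00394 by edgeR, and all 8 leave-out fits kept the call. The gene row rose 2.22-fold with a peak at CT7.5 (adjusted p 0.000317), and it is one of 17 genes called among 15217 (0.112%). Per 1000 gene reads the intron stood at 164 to 279, with no order by time, and the intron-to-gene fold was 1.09 (log2 0.12 ± 0.19 SE, adjusted p 0.962 by edgeR). The second Dbp intron called overlaps this one; no other gene of the core clock list of 25 had a member.

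Ipo9, an importin that carries proteins into the nucleus, had a called intron of 544 bp (chr1:137302550-137303093) whose gene was not called. The intron had 53, 125, 134 and 77 reads, then 83, 201, 140 and 50, again with no overlap of day and night. The intron was 2.25-fold higher in the day (log2 1.17 ± 0.21 SE, peak CT6.4, adjusted p 0.0314 by edgeR), against 1.13-fold for the gene (adjusted p 0.696). Intron reads per 1000 gene reads were 45.8 to 64.7 in the day and 20.4 to 31.4 at night, a 2.02-fold difference (log2 1.01 ± 0.19 SE). In the intron-to-gene test over both axes this intron did not pass (adjusted p 0.100 by edgeR). The intron call was kept in 4 of 8 leave-out fits. The deposited table has exons inside this intron and also one that covers it whole.

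Cacng7, an auxiliary subunit of AMPA-type glutamate receptors, was higher at night and gave the one called intron with no exon in the table (1664 bp, chr7:3336881-3338544). Reads were 263 and 188 at CT22, 206 and 242 at CT16, 102 and 146 at CT4, and 98 and 118 at CT10. Night exceeded day 1.95-fold with a peak at CT19.4 (log2 day-night -0.97 ± 0.17 SE, adjusted p 0.0314 by edgeR), and the groups did not overlap. The gene row held 503 to 698 reads and a day-night fold of 1.02 (adjusted p 0.748). Per 1000 gene reads, the intron stood at 308 to 488 at night and 152 to 281 in the day, 1.99-fold, with an adjusted p of 0.0909 by edgeR for the intron-to-gene difference. The intron call was kept in 3 of 8 leave-out fits, and GENCODE has an exon inside this intron.

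The fifth stretch was the 143 bp AK195683 intron inside the Mbp gene row. It had 4327, 1703, 7100 and 3223 reads, then 3654, 2741, 5911 and 6985, a peak at CT14.0 and an adjusted p of 0.0332 by edgeR, which was 0.326 by DESeq2 and up to 0.415 with 1 library left out. Mbp itself had 37011, 16677, 56471 and 27012 reads, then 32305, 25369, 47509 and 55426. The 2 libraries of CT16 differed more than 2-fold in both. In the plot of called introns by library, the AK195683 and Mbp lines lie almost on each other.

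**Figure D2:**
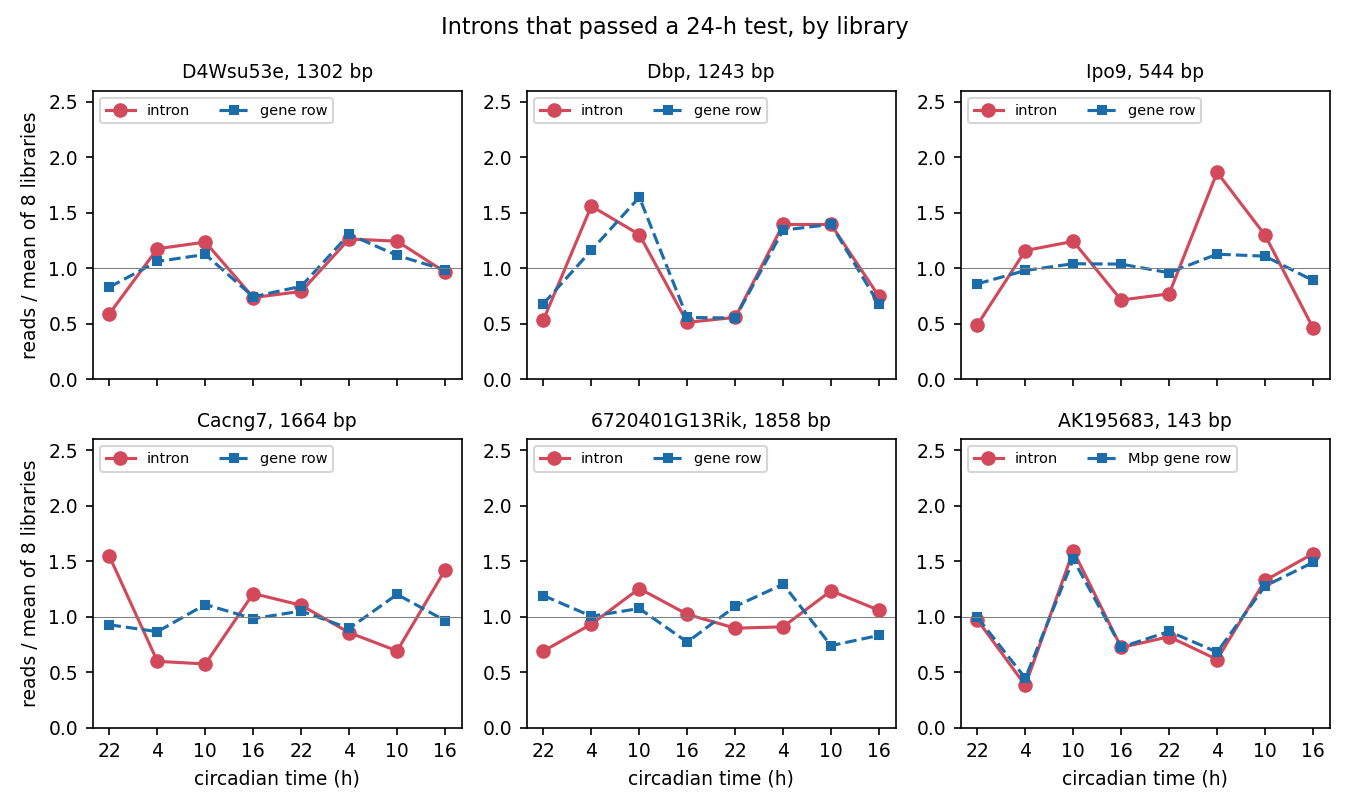
Reads of 6 introns (circles) and of their gene row (squares) in the 8 libraries in order of collection, each divided by its mean over the libraries; the x axis gives circadian time in hours. The first 4 introns and AK195683 passed the 24-h test on intron reads, 6720401G13Rik passed that on the intron-to-gene ratio, and for AK195683 the Mbp gene row is drawn.

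The intron-to-gene test asked whether an intron changed with time relative to its gene. It was possible for 1788 members and 56750 introns; 1 member was called, against 18 of all (0.0317%). At an unadjusted p under 0.05 were 179 members, 10%, with 6.85% of all introns and 15.4% of others with at least 100 reads, of which 10 (0.24%) were called. On its day-night term 0 members were called, against 1 of all introns (0.00176%). The deposited totals of each table had been equalised, so a change common to all introns of a library is removed, and a ratio here is relative to the other introns.

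The member called was the 1858 bp intron of 6720401G13Rik, now Firre, a long noncoding RNA gene of the X chromosome (chrX:47916132-47917989), which an exon of the table covers whole. Intron reads were 343, 463, 622 and 507, then 445, 451, 612 and 525, and gene row reads 256, 216, 231 and 166, then 235, 278, 159 and 179. Per 1000 gene reads the intron stood at 2693 and 3849 at CT10, 3054 and 2933 at CT16, 2144 and 1622 at CT4, and 1340 and 1894 at CT22. CT10 and CT16 lay above CT22 and CT4 without overlap, 1.82-fold (log2 0.86 ± 0.14 SE), with a peak at CT12.2. The intron-to-gene test over both axes gave an adjusted p of 0.0319 by edgeR. That call was kept in 2 of 8 leave-out fits, and was lost with exon reads in place of gene reads. Neither the intron alone (adjusted p 0.333) nor the gene (0.571) passed.

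The next 4 introns had the lowest remaining p-values of the intron-to-gene test without being called: Cacng7 and Ipo9, given above, Celf3 and Srsf7. Celf3, an RNA-binding protein of neurons, had 348 to 521 reads in the day and 537 to 774 at night on its 1525 bp intron (chr3:94293530-94295054), and 379 to 503 against 662 to 759 per 1000 gene reads (adjusted p 0.131 by edgeR). The Srsf7 intron of 1377 bp (chr17:80602085-80603461), which has no exon in the deposited table but one in GENCODE, gave 98.3 to 110 per 1000 gene reads at CT10, 85.5 to 104 at CT4, 62.6 to 76.9 at CT16 and 49.6 to 53.1 at CT22, also an adjusted p of 0.131. Day and night did not overlap in either. With DESeq2 in place of edgeR 11 members were called, among them introns of Cacng7, Celf3, Hnrnpa2b1, Hsd3b7, Ipo9, Srsf7, Trim9 and 6720401G13Rik.

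Intron and gene reads come from the same libraries, and 1783 members had a tested gene. The median log2 peak-to-trough difference was 0.37 for the introns and 0.21 for their genes, with fewer reads behind the former. Of all members, 2 belonged to a gene that passed the 24-h test, both of Dbp, and both were called. In the plot of day-night differences, Ipo9 and Cacng7 stand off the diagonal and Dbp lies on it.

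**Figure D3:**
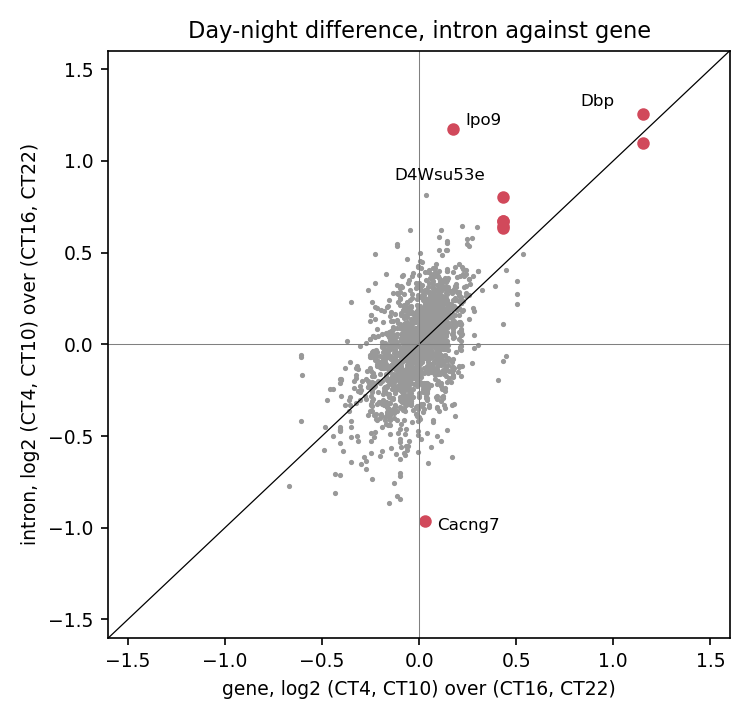
Log2 difference between day (CT4 and CT10) and night (CT16 and CT22) of 1783 introns against that of their gene; each point is 1 intron, red points passed the 24-h test on intron reads, and the black line marks equal differences. Ipo9 (intron 1.17, gene 0.17) and Cacng7 (-0.97 and 0.03) are the called introns farthest from the line.

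The list of SR proteins and other splicing regulators had members in 35 of its 69 genes. These were 108 introns in 70 stretches, with a median density of 58% against 40.7% over all members. The 5 called on intron reads are those of D4Wsu53e. At an unadjusted p under 0.05 were 29 of 108 on intron reads (26.9%) and 30 of 98 on the intron-to-gene ratio. Those on the ratio lay in 15 genes. On intron reads the share was 7.85% over all introns, 16.9% over all members and 16.3% over other introns with at least 100 reads. On the ratio it was 6.85% over all introns, 10% over all members and 15.4% over others with at least 100 reads. None of the 98 passed adjustment, and the directions were mixed: 60 were higher in the day relative to the gene and 38 in the night (median log2 0.04, all introns tested 0.01). The introns described next were chosen after their values were seen.

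Srsf6, an SR protein, had the ratio of its 1283 bp intron at 146 to 165 per 1000 gene reads in the day and 197 to 235 at night, with no overlap and a night-over-day fold of 1.34 (adjusted p 0.465 by edgeR). The 672 bp intron within it, with no exon, had 174 and 97 reads at CT22, 90 and 162 at CT16, 59 and 89 at CT4, and 52 and 92 at CT10: the groups overlapped, at 92 in the day and 90 at night. Srsf5 had a mean of 2780.5 reads on 1229 bp, 1.19-fold more at night relative to the gene (adjusted p 0.319). Snrnp70 stood at 471 and 481 per 1000 gene reads at CT10 and 268 and 358 at CT22 (adjusted p 0.274), and its gene row at CT22 was far higher in the first cycle (4190 reads) than in the second (2404). The 387 bp Clk1 intron had 185 to 269 reads in the day and 346 to 372 at night, 1.56-fold. Its 24-h test over both axes gave an adjusted p of 0.161 by edgeR and 0.0178 by DESeq2. The gene row had a night-over-day fold of 1.28 (adjusted p 0.441 in its 24-h test). Neither passed by edgeR, and the 799 bp intron of the gene had the opposite sign (log2 day-night 0.23, adjusted p 0.905 by edgeR). Relative to the gene its night-over-day fold was 1.21, with overlapping groups (adjusted p 0.844).

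The hnRNP and RNA-binding list had members in 25 of 44 genes, 84 introns in 54 stretches, with 0 called and 26 at an unadjusted p under 0.05 on intron reads (31%). That share was 7.85% over all introns, 16.9% over all members and 16.3% over other introns with at least 100 reads. Of 83 with a ratio, 21 stood at an unadjusted p under 0.05, in 12 genes, and 0 were called; on the ratio the share was 6.85% over all introns, 10% over all members and 15.4% over the others. Hnrnpa2b1's 486 bp intron stood at 67.3 and 70.3 per 1000 gene reads at CT10 against 37.5 and 48.1 at CT22 (adjusted p 0.196), where the 80 bp intron of the same gene ranged from 10.2 to 15.1 with no order by time (adjusted p 0.965).

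**Figure D4:**
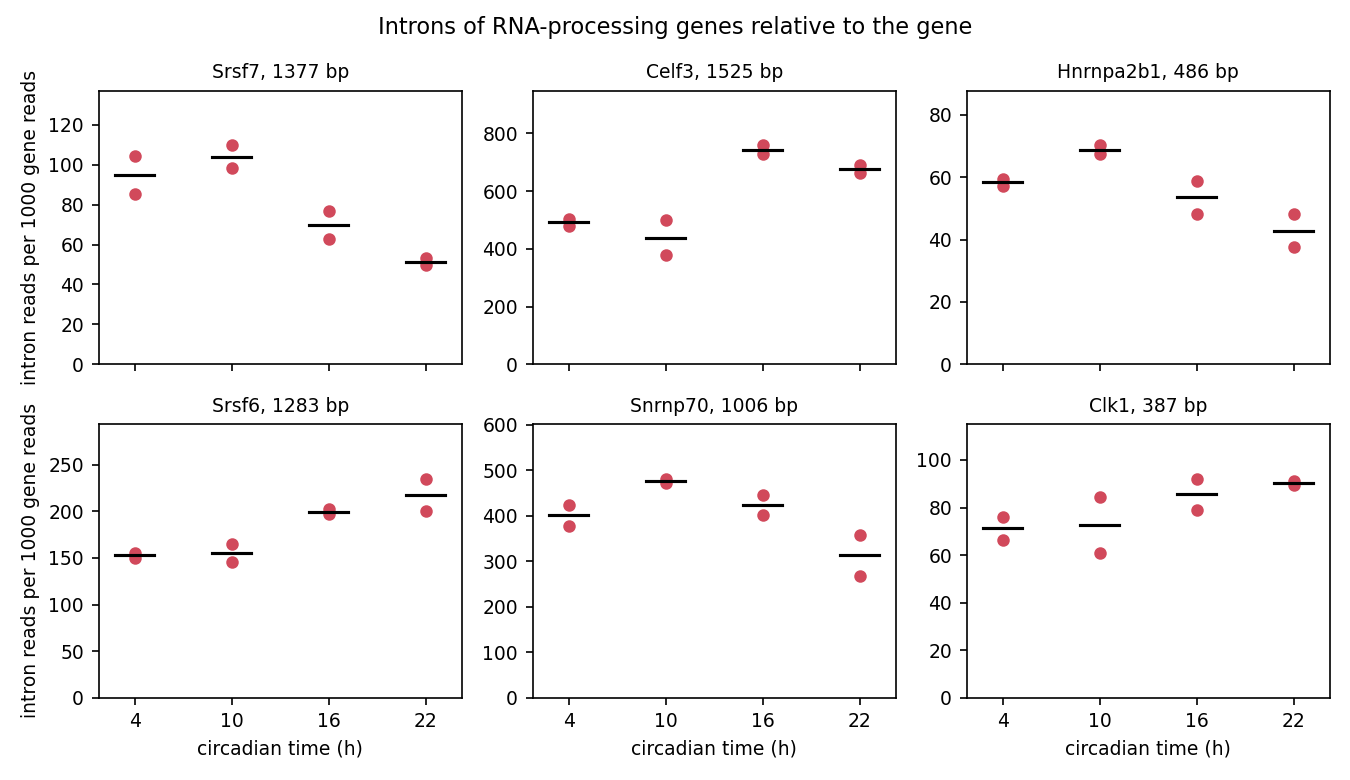
Intron reads per 1000 reads of the gene row for 6 introns of RNA-processing genes at the 4 circadian times (hours); each point is 1 library and the line is the mean of 2. The means of Srsf7, Hnrnpa2b1 and Snrnp70 are highest at CT10, that of Celf3 at CT16 and those of Srsf6 and Clk1 at CT22, and none of the 6 passed the adjusted intron-to-gene test.

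A list of 35 genes known for detained introns had members in 21, 62 introns in 44 stretches; lists may share genes. On the ratio 20 of 60 stood at an unadjusted p under 0.05, in 9 genes, and 0 were called, where all introns had 6.85%, all members 10% and others with at least 100 reads 15.4%. The snoRNA host list had 50 members in 20 of 84 genes with 0 called. On intron reads 12 of the 50 stood at an unadjusted p under 0.05 (24%, in 6 genes), but 3 of 49 on the ratio. The share on intron reads was 7.85% over all introns, 16.9% over all members and 16.3% over others with at least 100 reads. The long noncoding RNA list had 25 members in 11 of 41 genes. Meg3 had 5720 to 7181 reads at CT10 and CT16 and 7130 to 9263 at CT22 and CT4 on its 1687 bp intron (adjusted p 0.0564), and 42.7 to 54.6 per 1000 gene reads with no order by time.

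Introns of myelin genes were high in the libraries in which myelin gene RNA was high. The list had 14 members in 8 of 30 genes, and 0 were called. On intron reads 11 of the 14, in 6 genes, stood at an unadjusted p under 0.05. That share was 7.85% over all introns, 16.9% over all members and 16.3% over other introns with at least 100 reads. The median dusk-dawn difference was log2 0.62 against -0.02 over all introns. On the ratio to the gene 1 of 11 stood under 0.05, where all members had 10%. Mag, a myelin-associated glycoprotein, had 162, 94, 291 and 172 reads on its 939 bp intron, then 194, 150, 305 and 308, and 66.9 to 96.9 per 1000 gene reads, with an adjusted p of 0.151 by edgeR for the intron reads. Mobp, a myelin basic protein of oligodendrocytes, had 151, 80, 188 and 149 reads on 119 bp, then 189, 82, 183 and 274 (adjusted p 0.128). Both had their lowest library at CT4 of the first cycle and their highest at CT16 of the second, and the libraries of CT16 lay far apart. The 29 myelin markers found in the gene table summed to 7480 CPM at CT4 of the first cycle and to 21100 in the highest library, at CT16 of the second cycle. Their sums were 17500 and 20900 at CT10 against 7480 and 11600 at CT4, and 0 of 29 passed the gene test. In bulk tissue more oligodendrocytes in a sample and more RNA per cell cannot be told apart, and their part in the intron differences was not tested.

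**Figure D5:**
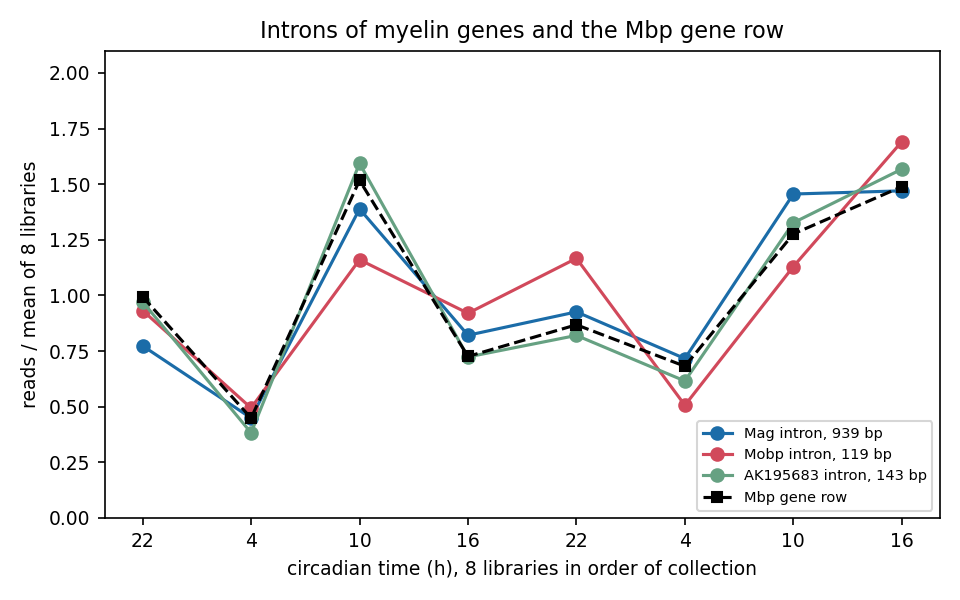
Reads of 3 introns at myelin genes and of the Mbp gene row in the 8 libraries in order of collection, each divided by its mean; the x axis gives circadian time in hours. The introns follow the Mbp gene row, with the lowest values at CT4 of the first cycle and high values at CT10 of both cycles and CT16 of the second.

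Chaperone genes had 9 members in 7 of 39 genes, 8 of them lower in the day (median log2 -0.32, all introns -0.01). Of all 1883 members 923 were lower in the day. None of the 9 was called, and 5, in 4 genes, stood at an unadjusted p under 0.05. That share was 7.85% over all introns, 16.9% over all members and 16.3% over other introns with at least 100 reads. Hsph1, an Hsp110 chaperone, had 132 to 219 reads in the day and 254 to 369 at night on its 1174 bp intron, 1.71-fold higher at night without overlap (adjusted p 0.0943), and the gene 1.59-fold (adjusted p 0.123). Cirbp, the cold-inducible RNA-binding protein, had the opposite phase: 989 to 1402 reads in the day and 715 to 821 at night on its 1649 bp intron, 1.40-fold (adjusted p 0.151), and 1.45-fold in the gene (adjusted p 0.0560). Relative to the gene neither passed (adjusted p 0.977 and 0.881). Both were chosen after their values were seen.

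The other lists gave few members near the threshold. On intron reads 7.85% of all introns and 16.9% of all members stood at an unadjusted p under 0.05. Ribosomal protein and translation genes had 39 members in 25 of 95 genes, with 0 called and 4 at an unadjusted p under 0.05. Of the 39, 32 were higher in the day (median log2 0.10), against 960 of all 1883 members and 48.9% of all introns (median log2 -0.01), and relative to the gene 25 of 38 were. Glycolysis and respiratory chain genes had 39 in 16 of 42, with 4 at an unadjusted p under 0.05, such as Aldoc with 1771 and 1612 reads on introns that hold exons (adjusted p 0.770 and 0.638). Astrocyte genes had 26 members in 11 of 26, with 3, neuronal cytoskeleton and synapse genes 34 in 18 of 68, with 4, and ion channels, transporters and receptors 17 in 11 of 51, with 2; none was called. Of 42 SCN and hypothalamic peptide genes only Chga, Scg2 and Scg3, which encode granins of secretory granules, had a member, 0 of 3 at an unadjusted p under 0.05: Avp, Vip and Nms had none, though Vip had 2109 to 4132 reads on its gene row. Ptgds was the only gene of the microglia and blood vessel list with members, 4 introns at 1.73% to 17.6% of its exon density.

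The members shared a small shift against their genes. Relative to each intron's own mean, the median log2 intron-to-gene ratio of the members was lowest at CT22 of the first cycle (-0.09) and highest at CT10 of the second (0.07), and 73.9% of the 1788 were higher at CT10 and CT16 than at CT22 and CT4 (median log2 0.10). Other introns with at least 100 reads showed 57.1% and 0.04, and all introns 48.4% and -0.02. In the members the other libraries lay at -0.003 and -0.046 at CT4 and 0.003 at CT22 of the second cycle. They lay at 0.005 at CT10 of the first cycle and at 0.059 and 0.031 at CT16. All these introns come from the same 8 libraries, so their number is not replication. With 2 libraries a time, the source of the shift was not tested.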

How the data were processed

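Sense-strand reads of introns, genes, exons and junctions were taken from the tables the authors deposited, which hold whole-number counts; STAR 2.3.0e and the mm9 build are named in the submitters' processing notes, and per the labels' protocols a TruSeq Stranded mRNA kit was used on polyA RNA. Totals had been made nearly equal within each table (4196931 to 4199146 intron reads and 11123610 to 11131890 gene reads per library), so depth before that step is not known. The intron table also holds a JTK p-value and q-value per intron, computed by the authors per the file headers. How reads in an intron that holds exons were counted is not given in the sources used here.

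Introns were tested with edgeR 4.0.16 (R 4.3.3), quasi-likelihood, on those with at least 10 reads in 2 libraries, with a day-night and a dusk-dawn term (2 and 5 degrees of freedom) and Benjamini-Hochberg adjustment over all introns tested. Library sizes were the TMM sizes of the gene table. The intron-to-gene test had the log of gene reads plus 0.5 as offset. The scripts were tested on simulated data. Square-root common dispersions came to 0.143 (genes), 0.295 (introns) and 0.313 (ratio). Exon classes and densities used the deposited exon table, and sequences and transcript types came from GENCODE M21.

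The members and gene lists were chosen with earlier results of these data known. Introns were named by rule: the 10 with most reads, those called (or else the 5 lowest p-values), the 10 highest densities among genes with at least 200 gene reads, those of the 5 genes with most members, up to 3 per list and those at the limits. Other introns named, including those of Srsf6, Clk1, Snrnp70, Arglu1, Ntsr2, Mag, Mobp, Hsph1 and Cirbp and those shown by sequence, were chosen after their values were seen. Alternatives were no filter, at least 50 reads, DESeq2 1.42.0, other scalings, a cycle term, other denominators, an interaction model, other limits of the rule and leaving out each library. Some introns that the rules name are not reported here. Counts by exon class were added after seeing the data.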

Additional observations from a re-analysis of the deposited data

Results flagged for a closer look

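Reads on the strand opposite to the gene were not used in any comparison. Of the 1782 members with an antisense row the median was 2 reads, but 15 had a mean of at least 100 antisense reads. The series has no control library without antisense RNA. Reads assigned to the wrong strand therefore cannot be told apart from antisense RNA. Some of the 15 had far more sense reads, such as Meg3 with 122.5 antisense and 7436 sense reads. Tubgcp4 had 502.5 antisense reads against 261 sense reads, and Cog8 434.75 against 160. Hnrnpa2b1 had 173 antisense reads on a 967 bp intron with 1602 sense reads. In all, 4 members had more antisense than sense reads.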

How the results depend on the processing

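Counts of calls depended on the processing. The 24-h test on intron reads, with 58 introns and 10 members called, gave 253 and 37 with no filter and 168 and 39 with DESeq2, and 31 introns with at least 50 reads; 9 of the 39 were also called by edgeR. Leaving out 1 library gave 10 to 100 introns and 2 to 24 members, the fewest without CT10 of the second cycle and the most without CT16 of the first. The members called were 1, 2, 6 and 1 in the 4 exon classes. The day-night term, with 22 introns and 9 members, gave 81 and 19 with no filter, 83 and 24 with DESeq2, and 5 to 26 and 4 to 9 with 1 library left out. The intron-to-gene test, with 18 introns and 1 member, gave 360 and 24 with no filter and 109 and 11 with DESeq2. It gave 0 and 0 with at least 50 reads, with junction reads as denominator and in the interaction model, 30 and 0 with exon reads as denominator, 35 introns with a cycle term, and 1 to 45 and 0 to 2 with 1 library left out. Its day-night term, with 1 intron and 0 members, gave 166 and 7 with no filter, 53 and 6 with DESeq2, 15 introns with a cycle term and 14 with exon reads, and 0 introns with at least 50 reads, junction reads or the interaction model; leave-out fits gave 5 to 15 introns and 0 to 1 members. The cause of these differences was not tested.

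The 1883 members became 887 at 1000 bp, 3725 at 5000 bp, 4616 at 50 reads and 731 at 200 reads. The median density of 40.7% was 25.4% without members that overlap an exon or another gene row. The labels give no replicate numbers, and the main fits paired no libraries. The titles do place each library in the first or second cycle. A fit with the cycle as a term called 73 introns and 11 members on intron reads. With 5 residual degrees of freedom and members at 100 reads or more, small changes may have gone undetected.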

Other observations

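The authors' deposited table gives a JTK rhythm test for each intron. By that test, in the authors' deposited table, 88 of the 1883 members (4.67%) had an adjusted p under 0.05, against 1.86% of all rows (3279), while the lowest q of a member was 1. The share among other introns of similar depth was not computed. None of the introns called above by edgeR was under 0.05 by JTK. Their JTK adjusted p ran from 0.0565, as for Cacng7 and Ipo9, to 0.435 for AK195683, and was 0.184 for the 1243 bp Dbp intron.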
